A study of Mus musculus with 9 samples.

Results

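The genes described here are 43 liver genes for the plasma proteins of complement and coagulation. They were taken by name from the 21870 genes of the deposited mRNA table, 22 for complement and 21 for coagulation and fibrinolysis. All 43 were among the 11557 genes tested. RNA was sequenced from livers of wild-type (WT) C57 BL6 mice that were 8 weeks old and weighed 20 g on average, with 3 libraries per group. The dmPGE2+APAP group received 300 μg/kg dmPGE2, a stable analogue of prostaglandin E2, and 1 h later 500 mg/kg acetaminophen (APAP), an analgesic that injures the liver in overdose. The APAP group received the same dose of APAP alone, and the control group received saline. Both agents were injected intraperitoneally, and livers were collected 6 h after APAP. The labels name no vehicle for dmPGE2, and mice given dmPGE2 alone were not analysed here. Nothing in the labels says whether the 3 libraries of a group came from separate mice, so the p-values measure only the spread between these samples.

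Complement is a cascade of plasma proteases and binding proteins that coats and lyses microbes, and it is started by antibody (classical pathway), by surface sugars (lectin pathway) or by slow activation of C3 (alternative pathway). Coagulation is a parallel protease cascade that ends with thrombin cutting fibrinogen into fibrin, and plasmin later dissolves the clot. Hepatocytes make most proteins of both systems, and several of their genes, fibrinogen above all, belong to the hepatic acute phase response. Loss of clotting factors from plasma is a clinical sign of severe acetaminophen injury.

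Values are FPKM, fragment counts that the authors divided by transcript length and library size, so levels of different genes can be set side by side. FPKM of the mRNA table summed to between 371958 and 393938 per library, and the read depth is not known. Group differences are log2 differences of FPKM + 0.1 after each library was divided by a scale factor, which moved the APAP minus control difference by 0.12, dmPGE2+APAP minus APAP by 0.032 and dmPGE2+APAP minus control by 0.15. A gene was called at a limma adjusted p under 0.05 over all genes tested. An exact test of 3 against 3 libraries cannot give a p under 0.1, so calls rest on the spread pooled across genes. Summed FPKM of 4 hepatocyte markers (Alb, Ttr, Apoa1 and Serpina1a) made up 9.58% to 10.6% of the table in dmPGE2+APAP livers, 9.72% to 11.2% in APAP livers and 7.71% to 8.59% in control livers. Summed FPKM of 5 platelet markers ran from 3.48 to 7.93 in dmPGE2+APAP livers, 14.1 to 17.6 in APAP livers and 1.60 to 2.05 in control livers. For 6 neutrophil markers the sums ran from 4.88 to 10.7 in dmPGE2+APAP livers, 9.20 to 40.1 in APAP livers and 1.87 to 6.26 in control livers. For 6 Kupffer cell markers they ran from 86.7 to 91.2 in dmPGE2+APAP livers, 46.8 to 83.0 in APAP livers and 82.0 to 95.6 in control livers. Against control, 4 of the 4 platelet markers tested were called higher in APAP livers and 3 in dmPGE2+APAP livers. Of 4 neutrophil markers tested, 3 and 1 were called higher, and of 6 Kupffer cell markers 0 were called in either group. Of all genes tested, 11.3% were called higher in APAP livers and 9.15% in dmPGE2+APAP livers. The platelet marker Gp9 was listed at 0 FPKM in control replicate 3. The part of these other cells in the results below was not tested, and in bulk liver fewer cells of a type and less RNA per cell cannot be told apart.

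Across the 43 genes the means in control livers ran from 9.14 FPKM for Cfp to 2000.0 FPKM for Fga, and 29 of the 43 were at 100 FPKM or more. The 22 complement genes summed to 6012 ± 164 FPKM in dmPGE2+APAP livers, 5796 ± 55.1 in APAP livers and 5976 ± 344 in control livers (mean ± SD, n = 3 here and throughout). The 21 coagulation genes summed to 8065 ± 214 FPKM in dmPGE2+APAP livers, 7404 ± 474 in APAP livers and 8897 ± 1877 in control livers. The wide control value comes with the fibrinogen chains Fga, Fgb and Fgg, which took 60.0% of the coagulation sum in control replicate 1, 42.6% in replicate 2 and 48.9% in replicate 3. Without those chains the coagulation sums were 4119 ± 90.3 FPKM in dmPGE2+APAP livers, 3964 ± 212 in APAP livers and 4292 ± 212 in control livers.

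APAP was compared with saline to ask how the liver transcriptome responds to the overdose by 6 h. Among the 43 genes the changes were few and small. Clu, the inhibitor of complement lysis clusterin, rose 1.28-fold in APAP livers, and Mbl2, a mannose-binding lectin that starts the lectin pathway, fell to 0.731 of the control level. Thus 1 of 43 members was called higher, against 11.3% of all genes tested, and 1 was called lower, against 9.4%. At an unadjusted p under 0.05 there were 2 higher members, against 17.9% of all genes, and 4 lower, against 17.5%. The 95% interval of the difference lay within 2-fold for all 43 members. The median log2 difference was 0.045 for the complement genes, −0.088 for the coagulation genes and −0.021 for all genes tested. The complement median was 0.0077 without APAP replicate 2, 0.022 without control replicate 2 and 0.088 without control replicate 3. The coagulation median was −0.17 without APAP replicate 2, −0.16 without control replicate 2 and −0.013 without control replicate 1. Without rescaling the complement median turned to −0.077 and the coagulation median was −0.21, and the members called were then 0 higher and 5 lower (Mbl2, Masp1, C4bp, Klkb1 and Serpind1). Of all genes called, 54.6% were higher with rescaling and 31.6% without it. Mean deposited FPKM was higher in APAP livers for 10 of the 43 genes.

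Pretreatment was compared with APAP alone to ask what dmPGE2 changed in the injured liver. No member was called, and 0% of all genes were. The differences were mostly of 1 sign: 41 of 43 members lay above 0, with a median log2 difference of 0.13 for complement genes and 0.16 for coagulation genes, against 0.025 for all genes tested, of which 55.2% lay above 0. At an unadjusted p under 0.05 there were 3 higher members (Mbl2, Mbl1 and F13b), against 4.75% of all genes, and 0 lower, against 4.61%. After rescaling, all 3 dmPGE2+APAP libraries lay above all 3 APAP libraries for 13 members, 8 of complement and 5 of coagulation, against 9.58% of all genes. They lay below for 0 members, against 822 of the 11557 genes tested. Other genes of these systems, described further on, also leaned upward in this comparison. Above 0 were 17 of 22 other complement genes (median 0.17) and 13 of 22 other coagulation genes (median 0.056). Without overlap, 9 (40.9%) and 8 (36.4%) of them were higher and 1 and 2 were lower, so the shift was not particular to the members. The 2 members below 0 were Serpinc1 and C4b. For 42 of the 43 members the 95% interval lay within 2-fold, and the exception was Mbl1. The medians kept their sign without rescaling, at 0.10 for complement and 0.13 for coagulation, and with 1 library left out they ran from 0.11 to 0.20 for complement and from 0.11, without APAP replicate 3, to 0.23 for coagulation.

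In dmPGE2+APAP livers set against control livers, Clu rose 1.31-fold and F12, which encodes the contact factor XII, rose 1.25-fold. These were 2 of 43 members, against 9.15% of all genes called higher, and 0 members were called lower, against 7.03%. At an unadjusted p under 0.05, 9 members were higher, against 16.7% of all genes, and 0 lower, against 14.4%. Medians were 0.19 for complement, 0.064 for coagulation and 0.013 for all genes tested, and without rescaling the complement median was 0.039 and the coagulation median turned to −0.090. With rescaling the coagulation median was −0.0064 without control replicate 2, 0.13 without control replicate 1, 0.041 without APAP replicate 3 and 0.099 without dmPGE2+APAP replicate 2. No member was called in this comparison without rescaling, and of all genes called 56.5% were higher with rescaling and 28.5% without it. Without control replicate 3, 5 other members were called higher (C1ra, C2, C8a, C8b and C9) and Clu and F12 were not. Without control replicate 1, without control replicate 2 or without any 1 of the dmPGE2+APAP libraries 0 members were called, and without any 1 of the APAP libraries 1 was (Clu without replicate 2, otherwise Mbl1). The comparisons share libraries, so their values are not independent of each other.

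**Figure D1:**
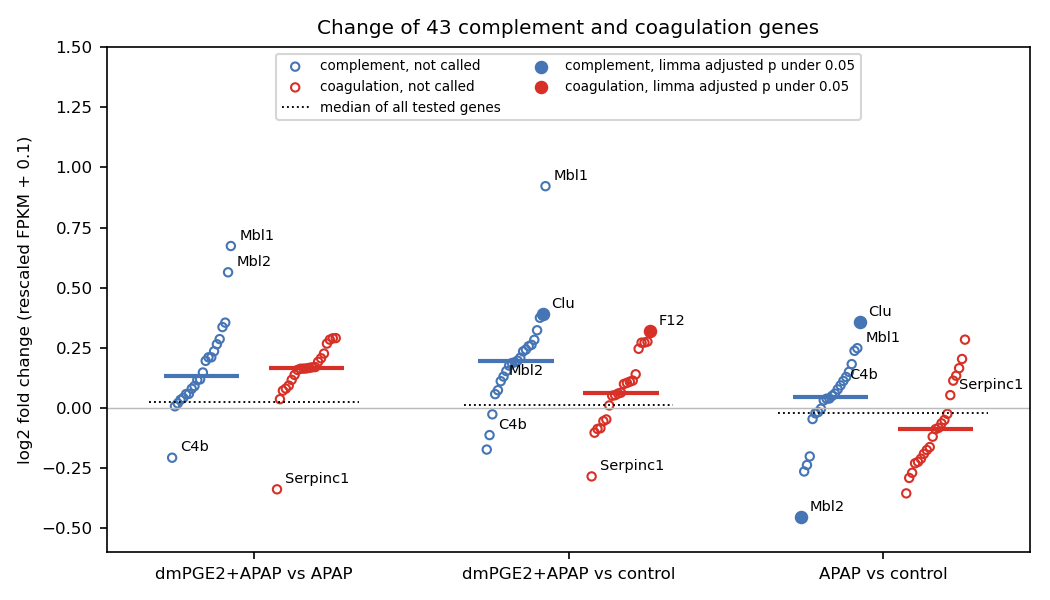
Each point is 1 of the 43 genes, and the vertical axis is its log2 fold change of rescaled FPKM + 0.1 in the comparison named below it. Thick bars are the medians of the 22 complement and 21 coagulation genes, dotted lines the median of all genes tested, and filled points genes at a limma adjusted p under 0.05. In dmPGE2+APAP against APAP 41 of 43 points lie above 0; against the controls the medians are 0.19 and 0.064 for dmPGE2+APAP and 0.045 and −0.088 for APAP, of which the coagulation median of dmPGE2+APAP and the complement median of APAP are below 0 without rescaling.

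Among the 8 genes that start the classical and lectin pathways, the mannose-binding lectins varied most. Mbl2 was at 90.6, 100.1 and 98.4 FPKM in dmPGE2+APAP livers, 63.6, 70.8 and 65.5 in APAP livers and 83.2, 99.3 and 118 in control livers. All 3 APAP libraries lay below all 6 others, and the dmPGE2+APAP and control ranges overlapped. Relative to control the log2 difference in APAP livers was −0.45 (SE 0.12, limma adjusted p = 0.0276), and dmPGE2+APAP livers were at 1.48 times the APAP level (log2 0.56, 95% interval 0.29 to 0.83, limma adjusted p = 0.291). The call against control kept its sign under all 20 alternatives but missed the threshold without APAP replicate 1 (limma adjusted p = 0.0852), without APAP replicate 3 (0.0690), without control replicate 2 (0.0772) and with only the compared groups in the fit (0.0709).

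Mbl1, the other mannose-binding lectin of the mouse, was at 61.2, 73.3 and 71.5 FPKM in dmPGE2+APAP livers, 60.8, 52.3 and 26.5 in APAP livers and 37.2, 36.6 and 47.6 in control livers. The dmPGE2+APAP libraries were above all others, and APAP replicate 3 was below all others. Against control the log2 difference of dmPGE2+APAP livers was 0.92 (SE 0.278, limma adjusted p = 0.0527), just short of the threshold, and it passed without APAP replicate 3 (0.90, limma adjusted p = 0.00251) and without APAP replicate 1 (limma adjusted p = 0.0425). With only the compared groups in the fit it passed as well (limma adjusted p = 0.00542). Without APAP replicate 3, Mbl1 was also higher in APAP than in control livers (log2 0.61, limma adjusted p = 0.0191). In that library Cfp, which encodes properdin, was lowest as well, at 5.86 FPKM against 10.8 and 9.07 in the other APAP libraries. C1rb, a close copy of C1ra, was at 1.55 FPKM there, against 11.05 to 15.8 in the other 8 libraries, and the summed Kupffer cell markers were at 46.8 FPKM, against 83.0 and 72.4 in APAP replicates 1 and 2. The part of that library's cell content in these values was not tested.

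Masp1 and Masp2 encode proteases that bind the lectins, and Masp2 cuts C4 and C2. Masp1 was at 38.4, 39.9 and 39.1 FPKM in dmPGE2+APAP livers, 34.7, 38.3 and 39.8 in APAP livers and 46.02, 42.9 and 59.9 in control livers. As deposited, both treated groups lay below the controls, and after rescaling only the APAP group did. Log2 differences from control were −0.17 in dmPGE2+APAP livers and −0.26 in APAP livers, neither of them called (limma adjusted p = 0.333 and 0.126). C1ra and C1s1 encode the proteases of C1, which start the classical pathway. C1ra was at 87.1, 88.9 and 86.8 FPKM in dmPGE2+APAP livers, 70.04, 85.1 and 77.7 in APAP livers and 73.5, 71.6 and 89.7 in control livers. Its dmPGE2+APAP values were nearly equal and above all but the highest control (log2 0.32 against control, limma adjusted p = 0.0763). C1s1 averaged 132, 115 and 129.8 FPKM and Masp2 60.1, 55.5 and 61.3 FPKM in dmPGE2+APAP, APAP and control livers.

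C2 supplies the protease of the C3 convertase that the classical and lectin pathways share. It was at 39.95, 40.6 and 40.2 FPKM in dmPGE2+APAP livers, 35.98, 39.5 and 41.5 in APAP livers and 35.4, 33.8 and 43.4 in control livers, and control replicate 3 was the highest of the 9 libraries. Its log2 difference from control was 0.26 in dmPGE2+APAP livers and 0.18 in APAP livers, not called (limma adjusted p = 0.1 and 0.211). C4b, which encodes C4, was at 329, 246 and 224 FPKM in dmPGE2+APAP livers, 293, 296 and 344 in APAP livers and 322, 299 and 327 in control livers. The groups overlapped through dmPGE2+APAP replicate 1, while replicates 2 and 3 of that group were below all other libraries. C4b, C1ra, C1s1 and Kng1 have close copies in the mouse genome (C4a, C1rb, C1s2 and Kng2), and how reads were shared between copies is not recorded, so their values are uncertain.

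C3, the protein on which all 3 pathways converge, was the most abundant complement gene. It was at 1647, 1705 and 1594 FPKM in dmPGE2+APAP livers, 1665, 1566 and 1681 in APAP livers and 2018, 1703 and 1539 in control livers, so control replicate 1 was highest and control replicate 3 lowest, and the treated libraries lay between them. Log2 differences were 0.04 for dmPGE2+APAP against APAP and 0.03 for APAP against control, with intervals of −0.29 to 0.38 and −0.30 to 0.37. Cfb, the protease of the alternative pathway convertase, averaged 376, 355 and 371 FPKM, and Cfp, which stabilises that convertase, averaged 9.95, 8.59 and 9.14 FPKM, in dmPGE2+APAP, APAP and control livers. In none of the 3 comparisons was any of these genes called.

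Of the 6 genes of the terminal pathway, which builds the pore that lyses cells, all lay above 0 in dmPGE2+APAP against APAP (median log2 0.19) and against control (median 0.19), with 0 called. C6 was at 66.6, 99.5 and 97.2 FPKM in dmPGE2+APAP livers, 64.1, 71.6 and 71.7 in APAP livers and 81.5, 75.2 and 105 in control livers. All APAP libraries were below all controls as deposited, but not after rescaling. Replicate 1 of the dmPGE2+APAP group was with the APAP libraries while replicates 2 and 3 were above them (log2 0.35, SE 0.161, limma adjusted p = 0.545). C8b, a chain of C8, was at 117, 143 and 149.6 FPKM in dmPGE2+APAP livers, 104, 119.7 and 107 in APAP livers and 99.5, 98.7 and 160.2 in control livers, and control replicate 3 was far above the other controls and above every treated library (log2 0.38 for dmPGE2+APAP against control, limma adjusted p = 0.184).

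Control replicate 3 stood out in the same way in C8a (209 FPKM, against 129 and 101 in the other controls) and C9 (297 FPKM, against 198 and 177), genes named after their values were seen. Without that library C8a, C8b and C9 were called higher in dmPGE2+APAP than in control livers, with log2 differences of 0.48, 0.55 and 0.36 (limma adjusted p = 0.0367, 0.0246 and 0.0451). Hc, which encodes C5, averaged 209, 205 and 205 FPKM in dmPGE2+APAP, APAP and control livers.

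Of the 5 soluble regulators, Clu was called in both comparisons with control and the others in neither. Clu, which binds the nascent lytic complex and is also an extracellular chaperone, was at 642, 667 and 615 FPKM in dmPGE2+APAP livers, 639, 634 and 648 in APAP livers and 567, 543 and 525 in control livers. All 6 treated libraries were above all 3 controls, and the treated groups overlapped. The log2 difference from control was 0.39 in dmPGE2+APAP livers (SE 0.105, limma adjusted p = 0.0357) and 0.36 in APAP livers (SE 0.105, limma adjusted p = 0.0413), and between the treated groups it was 0.03 (interval −0.20 to 0.27). The call in APAP livers was lost without any 1 of the 9 libraries, with limma adjusted p-values of 0.0602 to 0.1004. The call in dmPGE2+APAP livers was lost without any 1 library other than APAP replicate 2, with limma adjusted p-values of 0.0532 to 0.117. The direction was kept throughout.

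Vtn, another inhibitor of the lytic complex, was at 962, 972 and 915 FPKM in dmPGE2+APAP livers, 905, 971 and 921 in APAP livers and 913, 835 and 1002 in control livers. As deposited the groups overlapped, and after rescaling both treated groups lay above every control (log2 0.21 for dmPGE2+APAP and 0.15 for APAP against control, limma adjusted p = 0.256 and 0.392). The Vtn value includes the isoform Vtn-202, described further on. Serping1 encodes the C1 inhibitor, which also blocks factor XIIa and kallikrein and so belongs to both cascades. It was at 282, 271 and 218 FPKM in dmPGE2+APAP livers, 265, 251 and 257 in APAP livers and 241, 228 and 245 in control livers, with dmPGE2+APAP replicate 3 the lowest of all libraries and the other 5 treated libraries above every control. Its log2 differences from control were 0.26 in dmPGE2+APAP and 0.24 in APAP livers (limma adjusted p = 0.163 and 0.172). C4bp, which dismantles the classical convertase, was at 121, 127 and 137 FPKM in dmPGE2+APAP livers, 109.8, 121 and 109 in APAP livers and 143, 138 and 155 in control livers. As deposited, the APAP values were below all controls, and so, narrowly (137 against 138 FPKM), were the dmPGE2+APAP values. After rescaling only the APAP group lay below every control (log2 −0.24 for APAP and −0.03 for dmPGE2+APAP against control, limma adjusted p = 0.12 and 0.885). Cfi, the protease that inactivates C3b and C4b, averaged 236, 210.5 and 224 FPKM in dmPGE2+APAP, APAP and control livers.

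**Figure D2:**
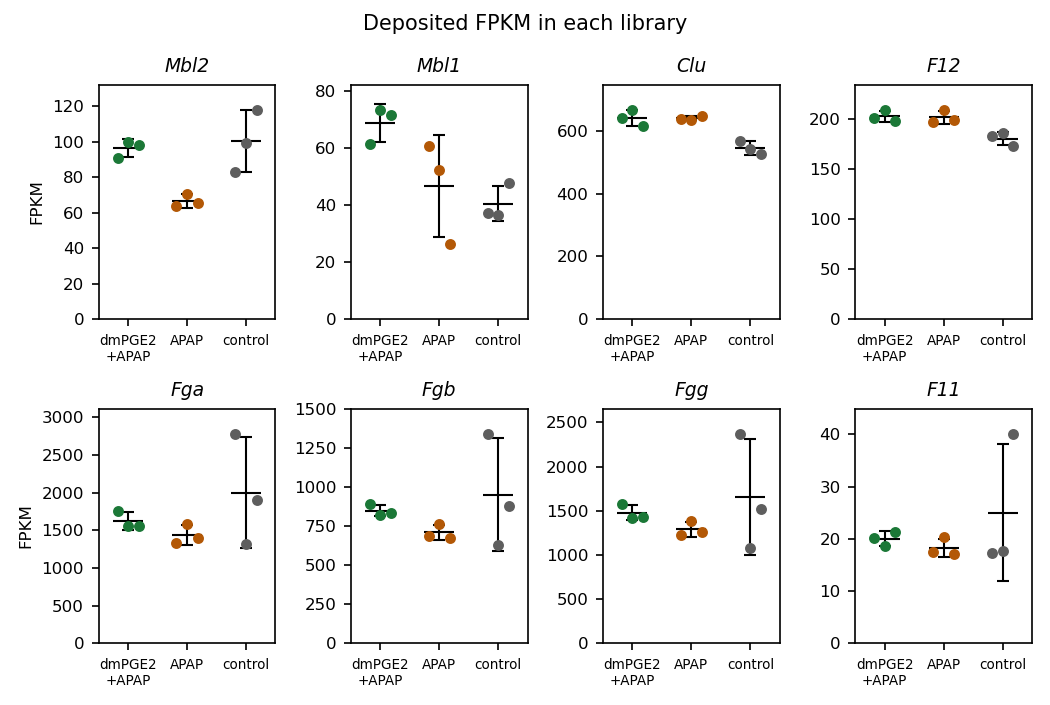
Points are the deposited FPKM of single libraries, with the mean and SD of each group (n = 3), for 4 genes of the lectin pathway, lysis control and contact activation (Mbl2, Mbl1, Clu, F12), the 3 fibrinogen chains and F11. Mbl2 is at 63.6 to 70.8 FPKM in APAP libraries, below all others, Clu is at 615 FPKM or more in every treated library and at 567 FPKM or less in every control, and control replicate 1 is highest for each fibrinogen chain.

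In the contact and kinin system, where factor XII, prekallikrein and kininogen assemble on surfaces and factor XI passes the signal on, F12 was at 201, 209 and 198 FPKM in dmPGE2+APAP livers, 197, 209 and 199 in APAP livers and 183, 186 and 173 in control livers. All 6 treated libraries lay above all 3 controls. The log2 difference from control was 0.32 in dmPGE2+APAP livers (SE 0.0947, limma adjusted p = 0.0493) and 0.28 in APAP livers (SE 0.0947, limma adjusted p = 0.0637). The call in dmPGE2+APAP livers was lost without any 1 of the 9 libraries, with limma adjusted p-values of 0.0513 to 0.137. Under scaling by the median ratio, F12 was also called in APAP livers (limma adjusted p = 0.0397).

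Klkb1, which encodes prekallikrein, was at 65.4, 75.1 and 79.6 FPKM in dmPGE2+APAP livers, 60.3, 66.2 and 60.00 in APAP livers and 74.04, 84.6 and 103 in control livers. Every APAP library was below every control. As deposited, dmPGE2+APAP libraries lay between the groups and overlapped both of them at their ends (log2 0.27 against APAP and −0.09 against control). After rescaling the dmPGE2+APAP libraries lay above every APAP library. For APAP against control the log2 difference was −0.35 (limma adjusted p = 0.0758), and without control replicate 1 it was −0.45 (limma adjusted p = 0.0476). F11, which encodes factor XI, was at 20.2, 18.6 and 21.3 FPKM in dmPGE2+APAP livers, 17.5, 20.3 and 17.1 in APAP livers and 17.2, 17.6 and 40.1 in control livers. Control replicate 3 was the sole high library, and the other 8 lay between 17.1 and 21.3 FPKM. Klkb1 and F11 are neighbours on chromosome 8. Kng1, the kininogen, averaged 598, 535 and 625 FPKM and Hrg, a heparin and plasminogen binding protein, 414, 398 and 458 FPKM in dmPGE2+APAP, APAP and control livers.

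Of the 4 vitamin K-dependent proteases and their cofactor factor V none was called, and at an unadjusted p under 0.05 only F2 was higher, in dmPGE2+APAP against control. F2, the gene of prothrombin, was at 598, 601 and 570.3 FPKM in dmPGE2+APAP livers, 550.1, 587 and 584 in APAP livers and 543, 546 and 537 in control livers. All treated libraries were above all controls, by log2 0.28 in dmPGE2+APAP livers and 0.20 in APAP livers, and neither difference was called (limma adjusted p = 0.101 and 0.188). F7, which starts the cascade with tissue factor, averaged 30.8, 29.04 and 33.1 FPKM, F9 83.7, 78.00 and 77.7, F10 93.4, 85.2 and 94.9 and F5 123, 112 and 126 FPKM in dmPGE2+APAP, APAP and control livers. All 5 genes lay above 0 in dmPGE2+APAP against APAP, between log2 0.072 and 0.16.

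Among the 4 anticoagulants, Serpind1, the gene of heparin cofactor II, was at 181, 168 and 178 FPKM in dmPGE2+APAP livers, 147, 184 and 150.1 in APAP livers and 190.1, 199.9 and 242 in control livers. APAP replicates 1 and 3 were the lowest libraries, while APAP replicate 2 was just above the dmPGE2+APAP values (log2 −0.27 for APAP and −0.10 for dmPGE2+APAP against control, limma adjusted p = 0.178 and 0.642). Serpinc1, which encodes antithrombin, was at 331, 341 and 516 FPKM in dmPGE2+APAP livers, 502, 529 and 472 in APAP livers and 495, 538 and 544 in control livers. Replicates 1 and 2 of the dmPGE2+APAP group were below all other libraries and replicate 3 was among them (log2 −0.34 against APAP, interval −0.74 to 0.06, limma adjusted p = 0.587). This gene value turned on 1 isoform, described further on, and with the deposited non-coding isoforms taken out its difference from control changed sign to log2 0.51 (limma adjusted p = 0.0178), against −0.28 for the gene value. Proc and Pros1, the genes of proteins C and S, averaged 187, 181 and 176 and 23.7, 19.7 and 24.3 FPKM in dmPGE2+APAP, APAP and control livers.

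**Figure D3:**
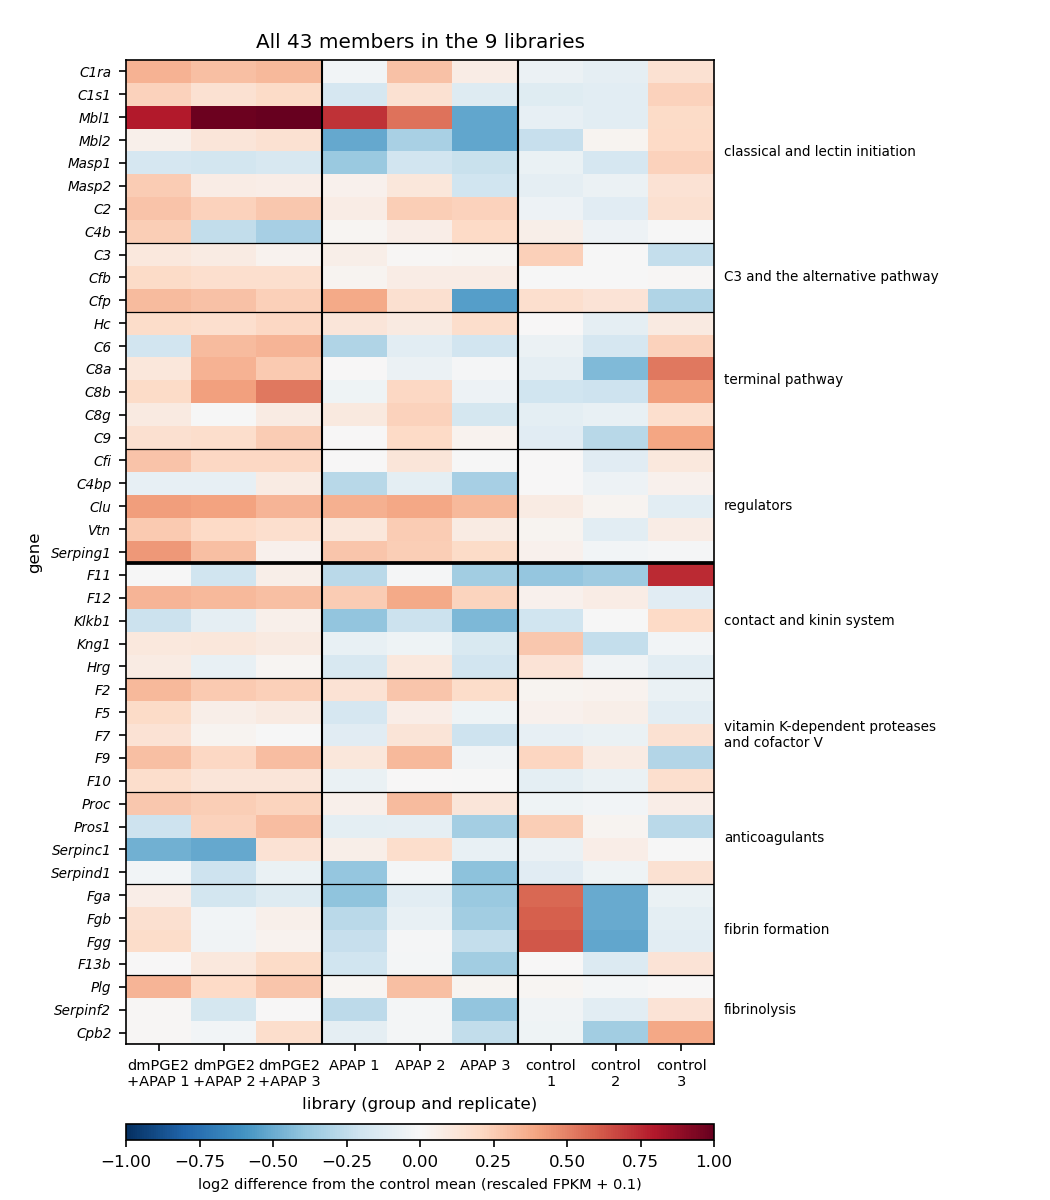
Each row is 1 of the 43 genes, grouped by role with complement above the thick line and coagulation below it, and each column 1 library; colour is the log2 difference of rescaled FPKM + 0.1 from the control mean, from −1 to 1. Mbl1 is highest in the 3 dmPGE2+APAP columns, the fibrinogen chains are high in control 1 and low in control 2, and C8a, C8b, C9 and F11 are high in control 3. The signs of rows near 0 depend on the rescaling.

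Fibrinogen is built from 3 chains whose genes lie together on chromosome 3 and are known to be transcribed in step. Fga was at 1757, 1557 and 1553 FPKM in dmPGE2+APAP livers, 1328, 1585 and 1403 in APAP livers and 2784, 1319 and 1897 in control livers. Fgb was at 890.3, 821 and 835 FPKM in dmPGE2+APAP livers, 689.9, 767 and 675 in APAP livers and 1342, 627 and 881 in control livers. Fgg was at 1573, 1420.2 and 1434 FPKM in dmPGE2+APAP livers, 1224, 1387 and 1259.6 in APAP livers and 2372, 1074 and 1516 in control livers. In each chain control replicate 1 was the highest of the 9 libraries and control replicate 2 was the lowest, so the controls enclosed both treated groups. The ratio of Fga to Fgb stayed between 1.86 and 2.15 and that of Fgg to Fgb between 1.71 and 1.87 in all 9 libraries, although the sum of the 3 ran from 3021 to 6498 FPKM. No chain was called in any comparison. For Fga, APAP against control, the log2 difference was −0.29 with an interval of −0.86 to 0.28, and for dmPGE2+APAP against APAP the 3 chains lay at 0.21, 0.29 and 0.23 (limma adjusted p = 0.82, 0.74 and 0.804). F13b, the carrier subunit of the fibrin cross-linking factor XIII, was at 70.4, 79.3 and 81.2 FPKM in dmPGE2+APAP livers, 63.6, 69.97 and 59.5 in APAP livers and 78.6, 70.97 and 90.99 in control livers. Every dmPGE2+APAP library was above every APAP library (log2 0.29, limma adjusted p = 0.495).

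The stretches before the starts of the 3 fibrinogen genes are shown because their values varied together. They come from RefSeq (GRCm38.p6), run 5′ to 3′ on the gene's strand and end at the start that the files give, which shortens the Fga window to 173 bases. Capitals mark matches on either strand to 4 motifs chosen after the sequences had been read: GTTAAT, found in HNF1 elements, TTGCNNAA for C/EBP, CTGGGAA for the type 2 IL-6 element of acute phase genes, and TTCNNNGAA for STAT factors.
Fga, chr3:83025903-83026075 (+): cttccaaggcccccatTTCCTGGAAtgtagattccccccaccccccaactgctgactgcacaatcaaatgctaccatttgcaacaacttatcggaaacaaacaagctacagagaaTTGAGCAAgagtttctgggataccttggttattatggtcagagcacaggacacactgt
Fgb, chr3:83049864-83050113 (−): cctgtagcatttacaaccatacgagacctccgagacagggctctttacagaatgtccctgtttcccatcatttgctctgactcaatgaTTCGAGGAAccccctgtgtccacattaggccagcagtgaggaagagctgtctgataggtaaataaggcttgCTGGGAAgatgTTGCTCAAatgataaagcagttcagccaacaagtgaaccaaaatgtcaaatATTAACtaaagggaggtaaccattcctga
Fgg, chr3:83007474-83007723 (+): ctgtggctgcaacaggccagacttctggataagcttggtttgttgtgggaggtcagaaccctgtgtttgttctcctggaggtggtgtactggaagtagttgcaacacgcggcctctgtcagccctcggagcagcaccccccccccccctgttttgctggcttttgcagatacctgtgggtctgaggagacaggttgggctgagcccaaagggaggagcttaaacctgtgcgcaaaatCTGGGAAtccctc
The Fgb stretch holds a match to each of the 4 motifs. In windows of 250 bases before the RefSeq start of a transcript, searched on both strands, GTTAAT was present in 6.43% of 32851 promoters in the table, TTGCNNAA in 9.56%, CTGGGAA in 9.1% and TTCNNNGAA in 7.02%. Promoters were found for 33 of the 43 members, of which 10, 9, 5 and 6 held these motifs. Counted by gene symbol, as the members were, the shares among 27025 symbols were 7.49%, 10.8%, 10.4% and 8.13%. GTTAAT was in 7 of 15 complement promoters and 3 of 18 coagulation promoters, and TTGCNNAA in 3 of 15 and 6 of 18. A match is a run of letters and not a measured site.

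Of the 3 genes of fibrinolysis, Plg, which encodes plasminogen, was at 701, 669.6 and 679.8 FPKM in dmPGE2+APAP livers, 586, 689.8 and 608 in APAP livers and 626, 609 and 656 in control livers. Every dmPGE2+APAP library was above every control, while the APAP values, as deposited, overlapped both other groups. The log2 difference of dmPGE2+APAP livers was 0.16 against APAP and 0.27 against control (limma adjusted p = 0.6997 and 0.151). Serpinf2, the plasmin inhibitor, averaged 224, 204 and 259.9 FPKM, and Cpb2, the carboxypeptidase that protects fibrin from plasmin, 124, 112 and 136 FPKM in dmPGE2+APAP, APAP and control livers.

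The spread between libraries of 1 group differed between the groups. The ratio of the highest to the lowest deposited FPKM of a member had a median of 1.08 over the 43 genes in dmPGE2+APAP livers, 1.14 in APAP livers and 1.28 in control livers, and it was widest among the controls for 28 of the 43. In the APAP group, replicate 2 had the highest rescaled value for 21 of 21 coagulation genes and 14 of 22 complement genes. In the control group, replicate 3 had the highest value for 17 of 22 complement genes and 9 of 21 coagulation genes. The contrast of the arms therefore differs by library. The median deviation from the mean of the group's other libraries was 0.22 for complement and −0.0079 for coagulation in control replicate 3. In APAP replicate 2 these deviations were 0.15 and 0.23. Set side by side, the complement median was above the coagulation median in both comparisons with control and below it in dmPGE2+APAP against APAP. The order in the comparisons with control was the same without any 1 of the 9 libraries, while in dmPGE2+APAP against APAP the medians were both 0.11 without APAP replicate 3. This is a description of the 2 lists and was given no test.

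The other genes of these systems, which include receptors and proteins made mainly outside hepatocytes, were read from a separate list. Of 22 tested genes of complement, 2 were lower in both treated groups than in control livers, a share of 9.09% that is close to the 7.03% (dmPGE2+APAP) and 9.4% (APAP) of all genes, and 0 were higher. C3ar1, the receptor of the C3a peptide, was at 0.2501, 0.219 and 0.195 FPKM in dmPGE2+APAP livers, 0.351, 0.207 and 0.196 in APAP livers and 1.28, 1.04 and 1.02 in control livers, with the treated libraries all below the controls (log2 −1.79 for dmPGE2+APAP and −1.70 for APAP against control, limma adjusted p = 0.00149 and 0.00161). It passed the filter of 0.5 FPKM or more in at least 3 libraries through the controls alone. Its lower calls and lack of overlap are therefore not independent of that filter. Summed FPKM of 3 monocyte markers, none abundant enough to be tested, ran from 0.259 to 0.433 in dmPGE2+APAP livers, 0.322 to 0.877 in APAP livers and 1.05 to 1.69 in control livers, and their part in the C3ar1 values was not tested. Susd4, a complement inhibitor, was also lower, with log2 differences of −0.49 in dmPGE2+APAP livers and −0.60 in APAP livers against control (limma adjusted p = 0.0391 and 0.0137). The Susd4 call in dmPGE2+APAP livers missed the threshold in 10 of 20 alternatives, with limma adjusted p-values up to 0.1201, among them without any 1 library other than APAP replicate 3 and control replicate 1.

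Of 22 other tested genes of coagulation and fibrinolysis, 4 were higher and 1 lower in dmPGE2+APAP livers, and 5 higher and 2 lower in APAP livers, than in control livers. The higher genes made up 18.2% (dmPGE2+APAP) and 22.7% (APAP) of the 22, against 9.15% and 11.3% of all genes, and the lower ones 4.55% and 9.09%, against 7.03% and 9.4%. Thbd, the thrombin receptor thrombomodulin of endothelium, was at 13.2, 13.2 and 12.4 FPKM in dmPGE2+APAP livers, 12.3, 8.94 and 9.802 in APAP livers and 1.68, 1.26 and 1.35 in control livers (log2 3.25 for dmPGE2+APAP and 2.89 for APAP against control, limma adjusted p = 5.94e-06 and 9.26e-06). The treated Thbd libraries were all above the controls. Also higher in both treated groups were Plaur, the urokinase receptor, and Plat, the tissue plasminogen activator, by log2 1.70 and 1.49 in dmPGE2+APAP livers and 2.61 and 1.77 in APAP livers. Over the alternatives the APAP difference ran from 1.34 to 2.94 for Plaur and from 0.65 to 2.21 for Plat, so its size depends on the settings. Such genes can pass the filter through the treated groups alone. Their calls, and the shares of higher genes above that include them, may therefore not be independent of that filter. Vwf, the von Willebrand factor of endothelium and platelets, was called in APAP livers alone (log2 0.72, limma adjusted p = 0.00551), and its difference between the treated groups was −0.30 (limma adjusted p = 0.528). Lower in APAP livers were Serpina10, which inhibits factor Xa together with protein Z (log2 −0.48), and Lman1, the cargo receptor that exports factors V and VIII (log2 −0.35; limma adjusted p = 0.0396 and 0.0184). Serpina10 missed the threshold without any 1 library other than control replicates 2 and 3 (limma adjusted p = 0.0559 to 0.1016), and Lman1 without control replicate 1 (0.0535). F3, the gene of tissue factor, was lower in dmPGE2+APAP livers, at 0.603, 0.632 and 0.541 FPKM, against 0.863, 0.848 and 0.904 in APAP livers and 1.21, 1.55 and 3.398 in control livers (log2 −1.37 against control, limma adjusted p = 0.0146). The APAP libraries also lay below every control as deposited, but F3 was not called there. It was called lower in APAP livers without rescaling (log2 −1.01, limma adjusted p = 0.0407) and without control replicate 1 (log2 −1.18, limma adjusted p = 0.0251). With the lncRNA-table isoforms, described further on, taken out it was called as well (log2 −1.08, limma adjusted p = 0.0440). Summed endothelial markers averaged 71.4 FPKM in dmPGE2+APAP, 64.4 in APAP and 59.7 in control livers.

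A list of 17 other proteins that hepatocytes secrete gives a frame for the members. It shares genes with the hepatocyte markers above, so the 2 are not separate observations. All 17 genes lay above 0 in both treated groups against control, with medians of 0.21 in dmPGE2+APAP and 0.18 in APAP livers, and 1 (Itih1 in dmPGE2+APAP livers) was called. Without rescaling 14 of the 17 lay above 0 in dmPGE2+APAP livers and 10 in APAP livers, with medians of 0.060 and 0.053. Their summed FPKM was 59632 ± 2699 in dmPGE2+APAP livers, 59132 ± 3987 in APAP livers and 51650 ± 1141 in control livers. In dmPGE2+APAP against APAP, with rescaling, 12 of the 17 lay above 0, with a median of 0.038.

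A deposited table of lncRNA also holds transcripts of protein-coding genes, among them 42 isoforms of 25 member genes. By GENCODE M21, 21 are annotated as retained introns and 20 as processed transcripts, which carry no open reading frame in the annotation, and 1 is not in it. The gene values of the mRNA table include these isoforms, since their sum was above the gene value in 0 of 114759 pairs of a gene and a library. At 0.1 FPKM or more in at least 3 libraries, 32 of the 42 were tested in a fit over 22984 transcripts.

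Against control, 6 of the 32 isoforms fell in APAP livers, against 0.962% of all transcripts tested, and 1 rose, against 2.62%. In dmPGE2+APAP livers 4 of them fell, against 0.535%, and the same 1 rose, against 1.25%. Between the treated groups 0 were called, as were 0% of all transcripts, and at an unadjusted p under 0.05 there were 1 higher, against 2.83%, and 1 lower, against 3.62%. The median log2 difference from control was −0.73 in dmPGE2+APAP and −0.66 in APAP livers over the 32, where all transcripts had medians of 0.076 and 0.093. All called isoforms were scarce, at 3 FPKM or less, and F11-202 alone reached more than 3% of its gene's value, at 2.79% to 9.13%.

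Plg-202, of the plasminogen gene, was at 0.3300, 0.156 and 0.285 FPKM in dmPGE2+APAP livers, 0.125, 0.137 and 0.207 in APAP livers and 1.82, 1.45 and 0.948 in control livers. Every treated library was below every control (log2 −2.04 for dmPGE2+APAP and −2.56 for APAP against control, limma adjusted p = 0.0206 and 0.00615). In APAP livers this call stood in all 19 alternatives, and in dmPGE2+APAP livers it missed the threshold in 6, among them without dmPGE2+APAP replicate 2 or 3 and without control replicate 1 or 2 (limma adjusted p = 0.0563 to 0.0698).

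The isoform C4bp-204 was at 0.249, 0.213 and 0.199 FPKM in dmPGE2+APAP livers, 0.215, 0.246 and 0.445 in APAP livers and 0.944, 0.948 and 1.203 in control livers. C2-203 was at 0.1997, 0.285 and 0.0814 FPKM in dmPGE2+APAP livers, 0.155, 0.08295 and 0.316 in APAP livers and 0.884, 0.978 and 0.843 in control livers. Vtn-203 was at 0.258, 0.523 and 0.694 FPKM in dmPGE2+APAP livers, 0.544, 0.647 and 0.443 in APAP livers and 1.95, 1.61 and 2.66 in control livers. In each of the 3 the treated and control libraries did not overlap. Log2 differences from control in dmPGE2+APAP livers were −1.79 for C4bp-204, −1.84 for C2-203 and −1.89 for Vtn-203 (limma adjusted p = 0.0149, 0.0387 and 0.0361). In APAP livers they were −1.57, −1.94 and −1.78 (limma adjusted p = 0.0177, 0.0227 and 0.0292).

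F11-202 was at 0.596, 0.945 and 0.746 FPKM in dmPGE2+APAP livers, 0.542, 0.566 and 0.928 in APAP livers and 1.57, 1.38 and 2.92 in control livers. F2-203 was at 0.647, 0.801 and 0.567 FPKM in dmPGE2+APAP livers, 0.539, 0.735 and 0.717 in APAP livers and 1.65, 1.92 and 1.27 in control livers. The treated libraries lay below every control in both. Both were called lower in APAP livers alone, by log2 −1.41 and −1.20 (limma adjusted p = 0.0494 and 0.0428), and in dmPGE2+APAP livers the differences were −1.17 and −1.11 (limma adjusted p = 0.116 and 0.0765). Clu-208 was at 1.88, 1.21 and 1.06 FPKM in dmPGE2+APAP livers, 1.26, 1.36 and 1.13 in APAP livers and 0.2996, 0.421 and 0.449 in control livers, above every control in all treated libraries, with log2 differences of 1.61 in dmPGE2+APAP and 1.43 in APAP livers (limma adjusted p = 0.0303 and 0.0308). Clu-207 was at 2.78, 1.74 and 1.297 FPKM in dmPGE2+APAP livers, 2.82, 1.82 and 1.69 in APAP livers and 0.867, 0.493 and 0.674 in control livers, also without overlap, and was not called (limma adjusted p = 0.088 in dmPGE2+APAP and 0.0576 in APAP livers). Apart from Plg-202 in APAP livers, every isoform call was lost without at least 1 of the libraries. Without APAP replicate 1 or without any 1 of the controls, Plg-202 was the sole one of the 7 still called in APAP livers, and without dmPGE2+APAP replicate 2, 0 isoforms were called in dmPGE2+APAP against control.

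**Figure D4:**
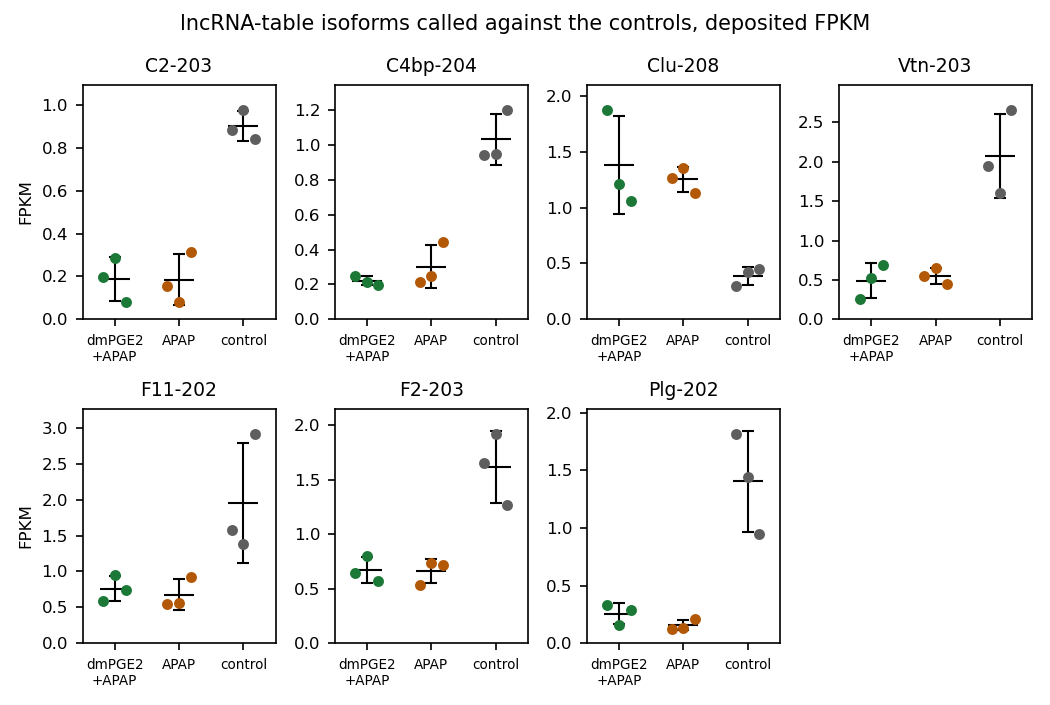
Points are the deposited FPKM of 7 isoforms in single libraries, with the mean and SD of each group (n = 3); these are the isoforms at a limma adjusted p under 0.05 against the controls in at least 1 treated group. Plg-202 is at 0.330 FPKM or less in every treated library and at 0.948 or more in every control, and Clu-208 is at 1.06 or more in every treated library and at 0.449 or less in every control.

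Plg-202 and Vtn-203 are annotated as retained introns, and the points where they run from a coding exon into the intron are shown because RNA from unspliced Plg or Vtn transcripts would hold the same letters. The 80 bases run 5′ to 3′ on the plus strand of GRCm38, from the GENCODE transcripts, with the coding exon in capitals and the intron, which opens with gt, in lower case.
Plg-202, chr17:12390317-12390396 (+): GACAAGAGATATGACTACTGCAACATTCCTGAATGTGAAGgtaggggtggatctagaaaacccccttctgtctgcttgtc
Vtn-203, chr11:78500003-78500082 (+): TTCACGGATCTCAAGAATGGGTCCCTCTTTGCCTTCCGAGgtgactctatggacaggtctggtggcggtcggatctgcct
In Plg-202, 954 of 1510 bases lie outside the coding exons of the gene, and in Vtn-203 79 of 906. Whether reads from unspliced RNA were counted into these isoforms was not tested. Among all tested retained introns the median log2 difference was 0.077 in dmPGE2+APAP and 0.096 in APAP livers against control, and for the 21 of member genes it was −0.94 and −0.57, with 3 lower and 1 higher called in each comparison. Of all tested retained introns, 0.505% were called lower and 1.13% higher in dmPGE2+APAP livers, and 0.789% lower and 2.26% higher in APAP livers.

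Some abundant isoforms differed between libraries of the same group by more than an order of size, and they are named here after their values were seen. Serpinc1-206, a retained intron isoform of the antithrombin gene, was at 15.8, 16.9 and 250.5 FPKM in dmPGE2+APAP livers, 262, 305 and 267 in APAP livers and 259, 315 and 290.0 in control livers. It made up 4.78% and 4.97% of the gene value in dmPGE2+APAP replicates 1 and 2 and 48.5% to 58.5% in the other 7 libraries. Without dmPGE2+APAP replicate 3 it was called lower than in APAP livers (log2 −4.00, limma adjusted p = 0.00272), and with all 3 it was not (log2 −2.68, limma adjusted p = 0.648). The rest of the Serpinc1 value was 315, 324 and 266 FPKM in dmPGE2+APAP livers, 240, 223 and 205 in APAP livers and 236, 223 and 253 in control livers, so it was highest in the dmPGE2+APAP group, where the whole gene value was lowest. Vtn-202 was at 6.09, 6.204 and 5.94 FPKM in dmPGE2+APAP livers, 148, 5.95 and 5.22 in APAP livers and 5.36, 5.202 and 188 in control livers, high in APAP replicate 1 and control replicate 3 and between 5.20 and 6.20 FPKM elsewhere. C8g-207, a processed transcript of the C8 gamma gene, held 90.9 to 123 FPKM in every library so that the lncRNA-table isoforms of C8g took 56.9% to 61.9% of its gene value. Gene values of Serpinc1, Vtn and C8g are therefore sums over isoforms whose division is uncertain.

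**Figure D5:**
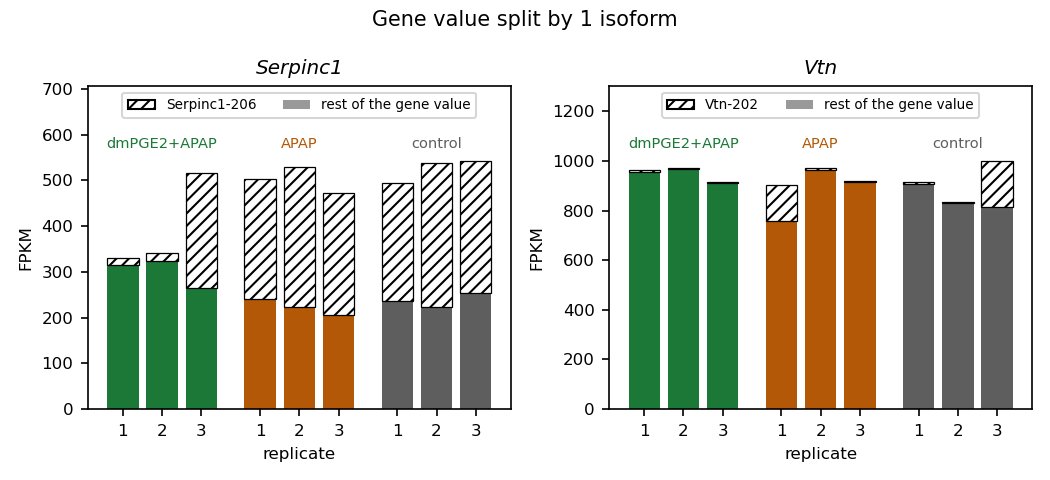
Bars are the deposited FPKM of Serpinc1 and Vtn in each library, divided into 1 isoform of the lncRNA table (hatched) and the rest of the gene value (solid). Serpinc1-206 is nearly missing from dmPGE2+APAP replicates 1 and 2 and makes up 48.5% to 58.5% elsewhere, and Vtn-202 is visible in APAP replicate 1 and control replicate 3 alone.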

How the data were processed

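Liver RNA libraries of 3 groups were analysed, 9 in all. The deposited FPKM tables give a value per gene (mRNA) and per transcript (lncRNA), per the file headers. Per the submitters' processing notes the aligner was HISAT2 and the genome GRCm38 (mm10). The quantifier, the annotation release and the use of strand are not given in the sources used here, so overlapping and antisense transcripts are uncertain. The deposited "readcount" tables are not counts but a score, equal to the FPKM times the genomic span times a constant per library (within 1% for every larger lncRNA score), so no count test was used and no counting interval is given. The control columns bear a name the labels do not define and were taken as controls because the others name the treated groups.

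FPKM were divided by a scale factor per library (trimmed mean of log ratios, unweighted), 0.1 was added and log2 was taken. Genes at 0.5 FPKM or more, and lncRNA-table transcripts at 0.1 or more, in at least 3 libraries were fitted in limma 3.58.1 (R 4.3.3) with 3 group means and an abundance trend over all 9 libraries, using two-sided tests and a Benjamini-Hochberg threshold of 0.05 over all features. Printed FPKM are as deposited, so a mean and a log2 difference can differ in sign. Overlap and order of single libraries are also read as deposited, unless rescaling is named, and can differ after rescaling. The code was checked on simulated data. The members and lists were chosen with earlier results of these data known. Members were given values in every library if they were called, among the 5 largest differences in either direction of a comparison, among the 6 most abundant in controls, or had a called isoform; the rest have means. Alternatives changed the pseudocount, filter, scaling, samples in the fit, trend and replicate block, and left out each library. Replicate numbers were not used to pair the samples in the main fit. A gene of the wider coagulation list is counted but not reported here by name.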

Additional observations from a re-analysis of the deposited data

How the results depend on the processing

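Of 20 alternatives, the call of Mbl2 was lost in 4, those of Clu in 13 (APAP) and 12 (dmPGE2+APAP), and that of F12 in 14, all with the same sign. Without a filter on low values 1 member (Mbl2) was called in APAP against control and 0 in dmPGE2+APAP against control, where 3 isoforms passed. With a pseudocount of 1, 1 member (Clu) was called in dmPGE2+APAP against control. Without rescaling 5 members were called in APAP against control and 0 in dmPGE2+APAP against control. The medians were then −0.0771 (complement) and −0.210 (coagulation) in APAP against control, and 0.0394 and −0.0901 in dmPGE2+APAP against control. With only the compared groups in the fit, 0 members and 4 isoforms were called in APAP against control, and 1 member (Mbl1) and 1 isoform in dmPGE2+APAP against control. Under scalings by the median ratio or a geometric mean reference F12 was added in APAP against control, for 3 members. The geometric mean reference, the removal of lncRNA-table isoforms from the gene values and the mRNA scale factors for the lncRNA table were chosen after the data had been seen. With the isoforms removed, Serpinc1 turned to log2 0.514 in dmPGE2+APAP against control, and by construction this takes Serpinc1-206 out of its value.

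With 1 library left out, members called ran from 0 to 2 in APAP against control and from 0 to 5 in dmPGE2+APAP against control, with 0 throughout in dmPGE2+APAP against APAP. Isoforms called ran from 1 to 7, 0 to 5 and 0 to 1 in the same comparisons. With the replicate block, 1 member (Mbl2) and 3 isoforms were called in APAP against control and 0 members and 0 isoforms in dmPGE2+APAP against control. Deviations of same-numbered libraries had correlations of −0.117 to 0.0716. Libraries with different numbers were not compared, so these values cannot decide whether the numbers pair the samples. Elsewhere, among 3941 alternative values that include counts and medians, 95 of single genes or isoforms changed sign, none of them called. The cause of the changes was not tested. No depth is known, so precision is limited by 3 libraries per group.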

Other observations

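Further isoforms of complement genes differed widely between libraries of the same group. C4b-203 was at 20.6, 0.835 and 0.892 FPKM in dmPGE2+APAP livers, 1.25, 0.698 and 20.7 in APAP livers and 0.899, 15.6 and 17.1 in control livers. Masp2-203 was at 3.42, 3.88 and 4.13 FPKM in dmPGE2+APAP livers, 3.28, 3.23 and 4.46 in APAP livers and 18.5, 18.4 and 4.07 in control livers, with control replicates 1 and 2 high, while Masp2-204 was at 3.35, 2.04 and 2.44 FPKM in dmPGE2+APAP livers, 2.14, 2.26 and 4.35 in APAP livers and 0.429, 0.313 and 2.28 in control livers, with the same 2 libraries low. Without control replicate 3, both were called in APAP against control, by log2 −2.38 for Masp2-203 and 2.56 for Masp2-204 (limma adjusted p = 0.00547 and 0.0191). The Masp2 gene value over the same libraries was 64.02, 59.4 and 56.8 FPKM in dmPGE2+APAP livers, 57.5, 58.7 and 50.3 in APAP livers and 56.4, 57.5 and 69.9 in control livers. Serping1-203 was at 18.8, 15.9 and 23.00 FPKM in dmPGE2+APAP livers, 16.1, 3.21 and 19.2 in APAP livers and 15.4, 20.2 and 14.7 in control livers, with APAP replicate 2 alone low.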
